A study of Homo sapiens with 24 samples.

Results

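Cyclins are the regulatory subunits of the cyclin-dependent kinases (CDKs), and 10 genes of this machinery are described here: the D-type cyclins CCND1 and CCND3 with their kinase CDK6, the E-type cyclins CCNE1 and CCNE2 with CDK2, and the mitotic set CCNA2, CCNB1, CCNB2 and CDK1. They form a list chosen with earlier results of these data known, out of 25992 gene names on the array. Each gene was taken by name with all its probes, 12 of the 34127 probes of the array. Shares over all probes printed beside member counts are therefore a scale and not a test. None of the 12 probes was saturated and each stood well above background on every one of the 24 arrays, so all 10 genes entered the test, which covered 23827 probes. CCNB1 and CCNE2 have 2 probes each, and the brighter one stands for the gene unless both are given.

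RNA came from A549 and H1975, both established human lung adenocarcinoma lines. Cells received 0.75 mg/ml of Pirfenidone, an oral antifibrotic drug, or the matching volume of PBS, for 6 h or 24 h at 37°C and 5% CO2. The 8 groups (2 lines, 2 treatments, 2 times) held 3 arrays each, hybridised in one colour. Each line is a single established culture rather than a set of tumours, and the labels name the 3 arrays of a group only as replicates, so p-values measure the spread between these samples, which may be technical.

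As background, cyclin D with CDK4 or CDK6 starts the phosphorylation of the retinoblastoma protein in G1. This frees E2F factors, which switch on the E-type cyclins and DNA replication genes. Cyclin A2 then serves S phase and G2, and the B-type cyclins with CDK1 drive entry into mitosis. Transcripts of CCNA2, CCNB1, CCNB2 and CDK1 accumulate in G2 and are low in cells that have left the cycle.

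Every value below is a log2 signal from which the 75th percentile of the array was subtracted, so 1 unit is a 2-fold change. A gene was called when its adjusted p (limma, Benjamini-Hochberg over all probes tested) was at most 0.05 and it differed at least 2-fold. Per array, 62.66% to 69.46% of probes counted as well above background. The epithelial markers EPCAM, KRT8, KRT18, KRT7 and CDH1 all counted so on the 12 arrays of each line. CDKN2A, a CDK inhibitor gene that is deleted in A549, was well above background on 12 of 12 arrays of each line, against that knowledge of A549, and read −2.33 to −0.88 in A549 and 2.37 to 3.07 in H1975. Of 5 markers of blood and vessel cells, CD3E was well above background on 0 of 12 A549 and 1 of 12 H1975 arrays and PECAM1 on 0 and 12. PTPRC (12 and 11), CD14 and CDH5 (12 and 12 each) were well above background in both lines. None of these 10 epithelial, blood and vessel markers passed the test in a Pirfenidone comparison, and CD3E was not tested. The arrays fall into 4 runs, read from the date in each deposited name, whose meaning the labels do not give. Within a slide each combination of treatment and time had its own place, so place and group cannot be told apart. The A549 pair of replicate 3 at 24 h (run 1) stands apart. Its PBS array read low and its Pirfenidone array high for the mitotic genes, and CDKN1A, the gene of the CDK inhibitor p21, read −0.91 on the PBS array and −2.17 on the Pirfenidone array. Whether these labels were exchanged was not tested. Some group differences that rest on the pair, mostly those of the mitotic genes, are also given without it or without its PBS array. The rest include the pair. It also enters the spread shared by all comparisons, and so their adjusted p.

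The mitotic cyclins were lower in H1975 after 24 h of Pirfenidone than after 24 h of PBS. CCNA2 fell 2.30-fold, CCNB1 2.26-fold and CCNB2 2.08-fold, and the E-type cyclin CCNE2 fell 2.13-fold. These 4 of the 10 genes were called, all lower, where 1.89% of all tested probes were called and 1% were called lower. The kinases CDK1 (1.94-fold) and CDK2 (1.98-fold) passed the adjusted p alone and fell just short of the 2-fold limit, which made 6 of 10 lower by adjusted p, against 3.35% of all probes. CCND1 stood apart from the rest, with a difference of 0.025. In bulk RNA, fewer cells in G2 or mitosis and less RNA per cell cannot be told apart.

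CCNA2, the cyclin of S phase and G2, read 0.66, 0.57 and 0.37 in the 3 H1975 PBS arrays at 24 h and −0.37, −0.45 and −1.16 with Pirfenidone. The groups did not overlap, and the Pirfenidone array of run 1 was the lowest of all. The difference was −1.20 (SE 0.31, adjusted p = 0.0298), with a 95% confidence interval from −1.85 to −0.54. Its probe, on chr4:122739995-122740054 of the minus strand (hg19), is printed in 10 spots per array, whose median SD was 0.040 on the log2 scale, under the spread between the Pirfenidone arrays. The file header places the bright CCNB1 probe and the CDK1 probe over 1761 and 1647 bases of hg19, while the other 10 probes cover 60 bases each.

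CCNB1, the main B-type cyclin of mitotic entry, read 4.08, 4.04 and 4.13 with PBS and 3.11, 3.07 and 2.54 with Pirfenidone. The PBS arrays lay close together, while the Pirfenidone arrays spread further and stayed below all of them. The difference was −1.18 (SE 0.33, adjusted p = 0.0388). The dimmer CCNB1 probe, on chr5:68473872-68473931 of the plus strand (hg19), read 0.53, 0.58 and 0.88 with PBS and −0.23, −0.39 and −0.57 with Pirfenidone. It moved by −1.06 (SE 0.26, adjusted p = 0.0214), so both probes of the gene were called lower.

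CCNB2, the second B-type cyclin, read 3.44, 3.37 and 3.48 with PBS against 2.60, 2.58 and 1.95 with Pirfenidone. Again the 3 PBS arrays were close together and the run 1 Pirfenidone array was the lowest. The difference was −1.06 (SE 0.30, adjusted p = 0.0456). CDK1, the kinase that both B-type cyclins activate, read 2.52, 2.74 and 2.77 with PBS and 1.95, 1.89 and 1.33 with Pirfenidone. Its difference was −0.95 (SE 0.24, adjusted p = 0.0265), and its groups did not overlap either.

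The mitotic genes that moved together are shown with the start of their promoters, because all 4 carry CCAAT boxes close to the transcription start. RefSeq windows of 300 bases (GRCh38.p14, 250 before and 50 after each start) were matched for 7 of the 10 genes and CCND1, CCNE2 and CDK2 had none. The searched letters were CCAAT, the cell cycle homology region (CHR) as TTTGAA or TTCGAA, and E2F letters, on both strands. E2F letters were TTGGCGC and its variants that read TTCGCGC, or with other middle bases TTCCCGC, or in the last form TTGCCGC. The stretches below hold the 120 bases before the start, 5′ to 3′ on the strand of the gene. Capitals mark CCAAT boxes, which read as ATTGG where they lie on the opposite strand, and the CHR.
CCNA2: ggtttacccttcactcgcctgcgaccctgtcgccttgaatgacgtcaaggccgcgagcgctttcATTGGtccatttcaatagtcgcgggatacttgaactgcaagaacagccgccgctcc
CCNB1: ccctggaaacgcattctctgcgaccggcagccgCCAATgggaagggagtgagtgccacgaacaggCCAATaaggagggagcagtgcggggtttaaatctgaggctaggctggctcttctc
CCNB2: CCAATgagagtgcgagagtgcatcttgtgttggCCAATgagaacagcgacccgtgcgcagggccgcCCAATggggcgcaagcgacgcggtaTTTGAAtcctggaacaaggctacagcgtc
CDK1: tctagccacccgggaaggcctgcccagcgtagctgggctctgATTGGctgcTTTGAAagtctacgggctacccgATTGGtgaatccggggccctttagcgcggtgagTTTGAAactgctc

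CCNA2 lies at chr4:121823884-121824003 (minus strand), CCNB1 at chr5:69167030-69167149, CCNB2 at chr15:59105026-59105145 and the downstream of the 2 CDK1 starts at chr10:60778358-60778477 (all 3 on the plus strand). In CCNB1 the CCAAT boxes begin at positions −87 and −55, 32 bases apart. In CCNB2 they begin at −120, −87 and −54, in steps of 33 and 33 bases, with another at −244 outside the stretch and a CHR at −29. In CDK1 they begin at −78 and −46, 32 bases apart and on the other strand, with a CHR at −69 and at −13. E2F letters stand further up at −175 and −127, and another CHR lies past the start, at 9 on the opposite strand. CCNA2 holds 1 box, at −56, and CCNB1 has E2F letters at −132. The upstream CDK1 window holds 1 CCAAT box, 1 CHR and 2 E2F matches.

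Over all 35116 windows, 34.6% held a CCAAT box, 16.4% a CHR and 13% an E2F match, 10.8% held at least 2 CCAAT boxes and 1.91% at least 2 CCAAT boxes together with a CHR. CCNB2 and the downstream CDK1 window belong to that last class and CCNB1 to the one with at least 2 boxes. Among the other members, 2 of the 3 CCND3 windows held 1 CCAAT box each, and the CCNE1 window and both CDK6 windows held none of the searched letters. A match describes the letters only and is not a measured binding site. Other spellings of the CHR and of E2F letters were not searched, so a window without a match, as for the CHR in CCNA2, may still hold a variant.

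CCNE2, one of the E-type cyclins that open S phase, read −1.20, −1.23 and −0.89 in H1975 with PBS for 24 h and −1.98, −1.95 and −2.66 with Pirfenidone. All 3 treated arrays lay below all 3 controls. The difference was −1.09 (SE 0.21, adjusted p = 0.00768). The dimmer CCNE2 probe moved by −0.98 (SE 0.29, adjusted p = 0.0543) and so missed both limits, with its groups also apart.

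CDK2, the kinase of cyclins E and A, had the smallest adjusted p of the 10 genes in H1975 at 24 h. It read −2.12, −2.04 and −1.90 with PBS and −2.84, −2.82 and −3.35 with Pirfenidone. The difference was −0.98 (SE 0.17, adjusted p = 0.0039). CCNE1, the other E-type cyclin, read 2.05, 1.94 and 2.05 with PBS against 1.85, 1.84 and 1.66. Its groups did not overlap, but the difference of −0.23 (SE 0.12, adjusted p = 0.292) did not pass the test.

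The G1 genes split. CCND1, the cyclin of the first step out of G1, read 0.14, 0.022 and −0.30 with PBS and 0.13, 0.12 and −0.32 with Pirfenidone in H1975 at 24 h. Within runs it differed by −0.018 to 0.099, and the interval of the difference ran from −0.28 to 0.33. CCND3 read 0.54, 0.57 and 0.74 against 0.13, 0.031 and −0.37, a difference of −0.69 (SE 0.25, adjusted p = 0.109). CDK6 read 0.33, 0.40 and 0.90 against −0.24, −0.085 and 0.085, a difference of −0.63 (SE 0.29, adjusted p = 0.206). Both stood lower on all 3 treated arrays without passing the test in this fit, which has no block. With run as a block the adjusted p in limma was 0.0043 for CCND3 and 0.0417 for CDK6. With slide as a block it was 0.0134 and 0.111, and with replicate as a block 0.0346 and 0.197. Neither gene reached 2-fold in any of these, so neither was called. Over the 10 genes, 9 had all Pirfenidone arrays below all PBS arrays, where 15.6% of all tested probes did, and the median difference was −0.97 beside 0.023 for all probes.

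**Figure D1:**
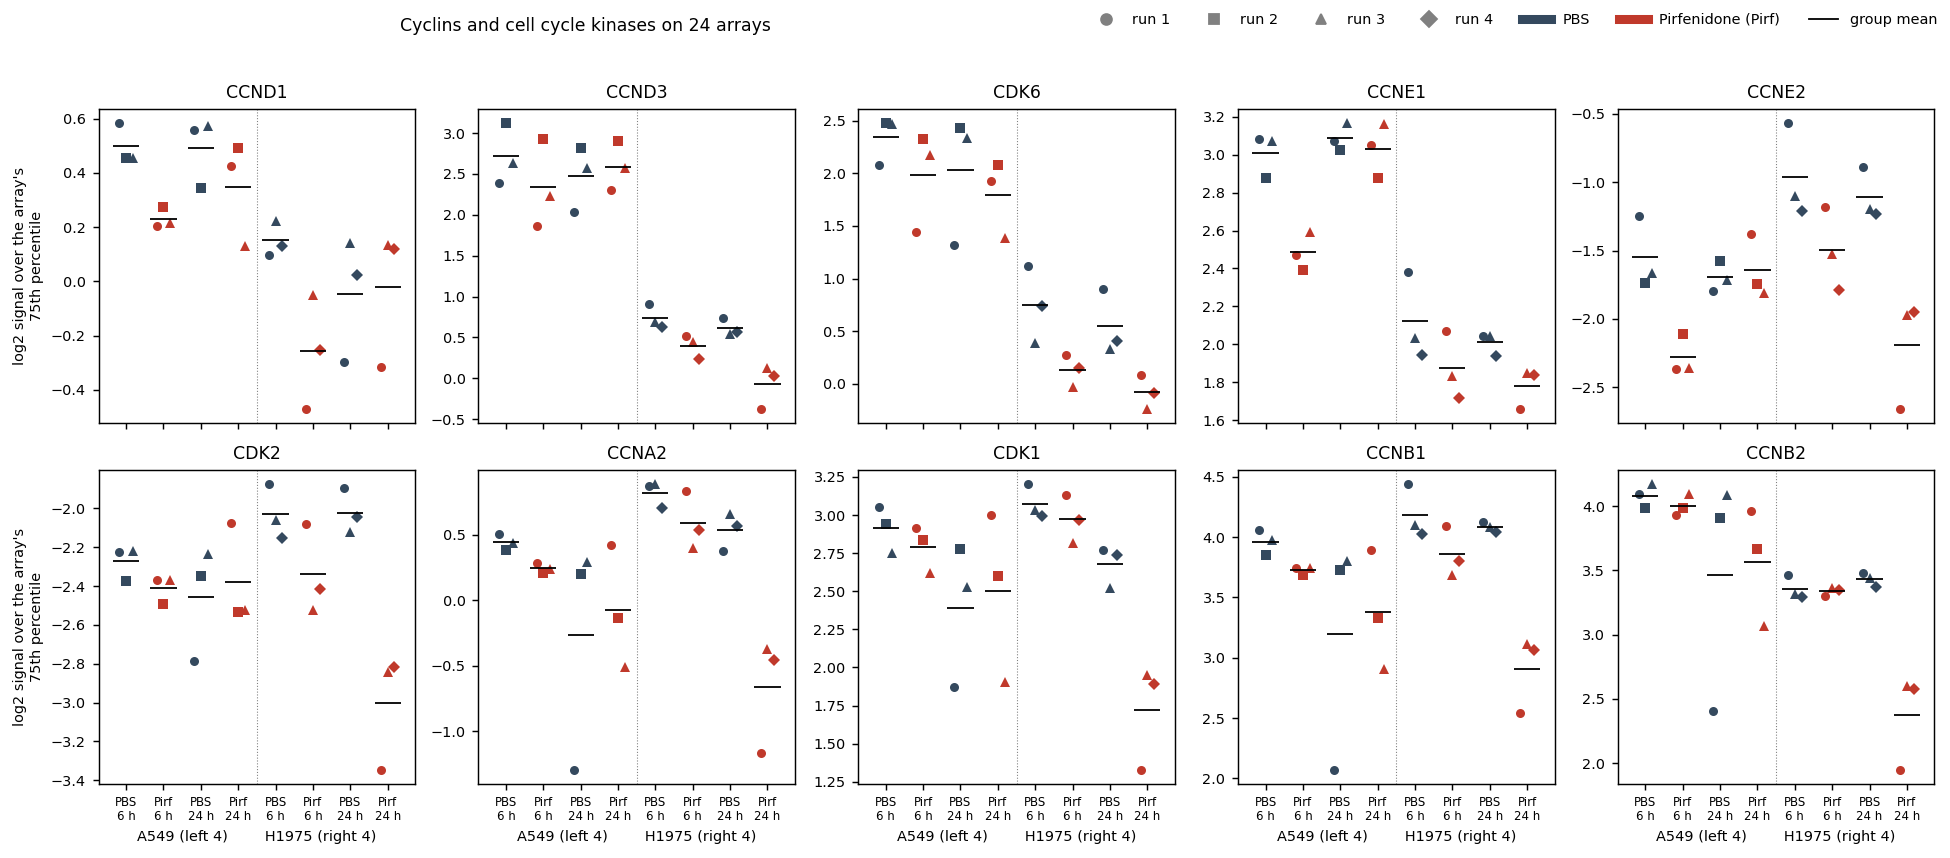
Log2 signal relative to the 75th percentile of each array (vertical axis) for the 10 genes in the 8 groups (horizontal axis), 3 arrays per group, with the run of each array as its marker and a bar at the group mean. In H1975 at 24 h the Pirfenidone arrays of CCNA2, CCNB1, CCNB2, CDK1, CDK2 and CCNE2 lie below all PBS arrays, while those of CCND1 overlap, and the A549 PBS array of run 1 at 24 h is low for CCNA2, CCNB1 and CCNB2.

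Within each of the 3 runs of H1975 at 24 h the 4 called genes were lower with Pirfenidone. In run 1 the median of the 10 differences was −1.45, in run 3 it was −0.64 and in run 4 −0.75, with 10, 10 and 9 of 10 genes lower. Shares over all probes were not computed for counts within runs, here and below, so such counts describe the members only. For CCNA2 the 3 differences lay between −1.54 and −1.02, for CCNB1 between −1.59 and −0.97, for CCNB2 between −1.53 and −0.79 and for CCNE2 between −1.77 and −0.72. Without the run 1 Pirfenidone array (replicate 3) the differences were −0.95 for CCNA2, −0.99 for CCNB1, −0.84 for CCNB2 and −0.86 for CCNE2. No gene was then called (adjusted p = 0.18, 0.193, 0.226 and 0.0608 in limma). The count was also 0 without PBS replicate 3, 1 without PBS replicate 2, 2 without PBS replicate 1, 2 without the A549 PBS 6 h replicate 2, which enters through the shared spread, and 3 or 4 without any other array. With slide as a block, CCNA2, CCNB1 and CCNB2 lost their call (adjusted p = 0.0797, 0.0908 and 0.084), while CDK1 and CDK2 gained it at differences of −1.03 and −1.02. H1975 PBS replicate 1 at 24 h is alone on its slide and adds nothing to that fit. Both A549 arrays of replicate 3 at 24 h also enter through the shared spread. Without them the same 4 genes were called in H1975 at 24 h. Their adjusted p in limma was then 0.00055 for CCNA2, 0.00033 for CCNB1, 0.00077 for CCNB2 and 0.0038 for CCNE2.

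After 6 h all 10 genes had lower means with Pirfenidone in both lines, but none passed the test. No member was called in limma, where 0.176% of probes were called in A549 and 0.491% in H1975, and before adjustment 2 members in A549 and 3 in H1975 had a p under 0.05, where 6.01% and 11% of all probes did. In A549 the E-type cyclins and the G1 genes gave the lowest values, and in H1975 CDK6, CCNE2, CCND1 and CCND3 did. CCNE2 differed by −0.73 (SE 0.21, adjusted p = 0.255) in A549 and −0.54 (SE 0.21, adjusted p = 0.309) in H1975. CCNE1 differed by −0.53 (SE 0.12, adjusted p = 0.084) in A549 and −0.25 (SE 0.12, adjusted p = 0.479) in H1975. CDK6 differed by −0.36 and −0.62, CCND3 by −0.38 and −0.34 and CCND1 by −0.27 and −0.41. The mitotic genes, with the bright probe for CCNB1, ranged from −0.24 to −0.079 in A549 and from −0.33 to −0.019 in H1975. The dimmer CCNB1 probe differed by −0.44 in A549 and −0.43 in H1975, lower than CCND1 and CCND3 in both lines. The order of G1 and mitotic genes at 6 h thus depends on the probe.

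CCNE1 in A549 had the lowest adjusted p of the members at 6 h, with 3.01 ± 0.12 (SD, n = 3) under PBS and 2.48 ± 0.10 under Pirfenidone. The 3 PBS arrays read 2.88, 3.07 and 3.08 and the 3 treated arrays 2.39, 2.60 and 2.47, with no overlap. At 24 h the A549 groups overlapped, at 3.09 ± 0.07 and 3.03 ± 0.14. CCNE2 in A549 read −1.74, −1.67 and −1.25 with PBS for 6 h and −2.11, −2.36 and −2.37 with Pirfenidone, also apart. At 24 h it read −1.70 ± 0.11 against −1.64 ± 0.23.

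CCND1 read 0.099, 0.22 and 0.13 in the H1975 PBS arrays at 6 h and −0.051, −0.25 and −0.47 with Pirfenidone. It was lower on all 3 treated arrays, with a difference of −0.41 (SE 0.14, adjusted p = 0.226). In A549 it read 0.45, 0.46 and 0.58 against 0.28, 0.22 and 0.20, again without overlap, a difference of −0.27 (SE 0.14, adjusted p = 0.937). At 24 h CCND1 was level in H1975 and differed by −0.14 (SE 0.14) in A549, where its arrays overlapped. In A549 at 6 h 5 of the 10 genes had all treated arrays below all controls, against 8.23% of all probes, and in H1975 3 did, against 7.14%.

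Within runs, 9 of the 10 genes were lower with Pirfenidone in 6 of 6 line and run pairs at 6 h, and CCNB2 in 4 of 6. The share of all probes that did so was not computed, so this count is a description only. The lowest and highest differences were −1.12 and −0.37 for CCNE2, −0.62 and −0.20 for CCNE1, −0.57 and −0.18 for CCND1 and −0.16 and 0.058 for CCNB2. With run as a block and no fold limit, CCNE1 in A549 (adjusted p = 0.0144) and CCND1 in H1975 (adjusted p = 0.0236) passed the adjusted p at 6 h, an alternative added after the values were seen. No member reached 2-fold at 6 h.

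**Figure D2:**
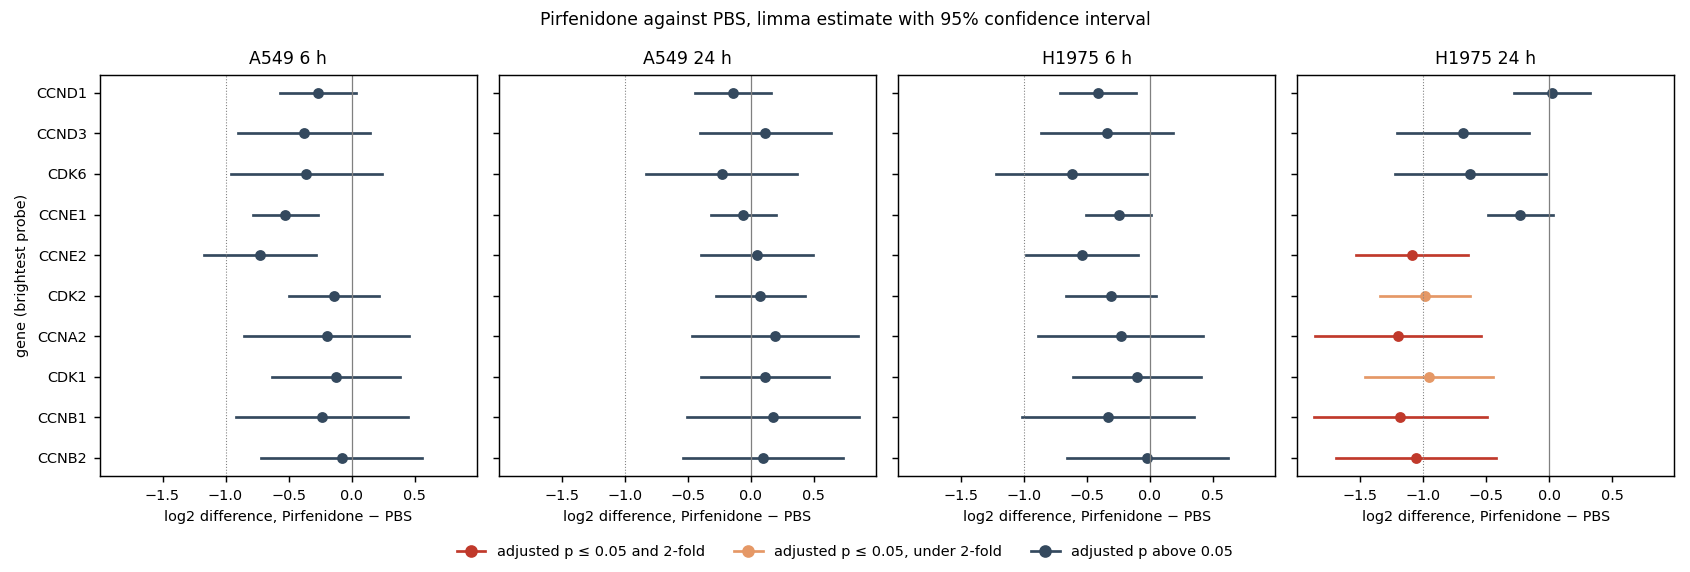
Log2 difference of Pirfenidone minus PBS (horizontal axis) for each of the 10 genes (vertical axis) in the 4 comparisons, as the limma estimate (point) with its 95% confidence interval (bar), where the dotted line marks a 2-fold fall. The 4 called genes, CCNA2, CCNB1, CCNB2 and CCNE2, are all in H1975 at 24 h, and all 10 points lie left of 0 at 6 h in both lines.

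In A549 after 24 h no member passed the test, and the runs did not point one way. None of the 10 genes was called in limma and 3 were lower, where 0.0126% of all probes were called, and before adjustment 0 members had a p under 0.05, where 0.953% of all probes did. CCNA2 differed by 0.19 (SE 0.31) and CCNB1 by 0.18 (SE 0.33), with arrays that overlapped for all 10 genes. The A549 PBS array of replicate 3 (run 1) read −1.30 for CCNA2 where the other 2 read 0.20 and 0.29. For CCNB1 it read 2.07 beside 3.73 and 3.80, and for CCNB2 2.41 beside 3.91 and 4.09. Its Pirfenidone partner of the same run was the highest treated array, at 0.42 for CCNA2 beside −0.13 and −0.51.

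Inside run 1 the A549 difference at 24 h was 1.72 for CCNA2, 1.82 for CCNB1, 1.56 for CCNB2 and 1.13 for CDK1. In run 2 the same differences were −0.34, −0.40, −0.24 and −0.17, and in run 3 −0.80, −0.89, −1.02 and −0.62. There were 2 of 10 genes lower in run 1, 8 in run 2 and 9 in run 3. Without the PBS replicate 3 array alone the difference was −0.32 for CCNA2, −0.39 for CCNB1 and −0.43 for CCNB2. Without both replicate 3 arrays the A549 difference was −0.57 for CCNA2, −0.65 for CCNB1, −0.63 for CCNB2 and −0.40 for CDK1, and still no gene was called. CDKN1A moved the other way in that run.

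**Figure D3:**
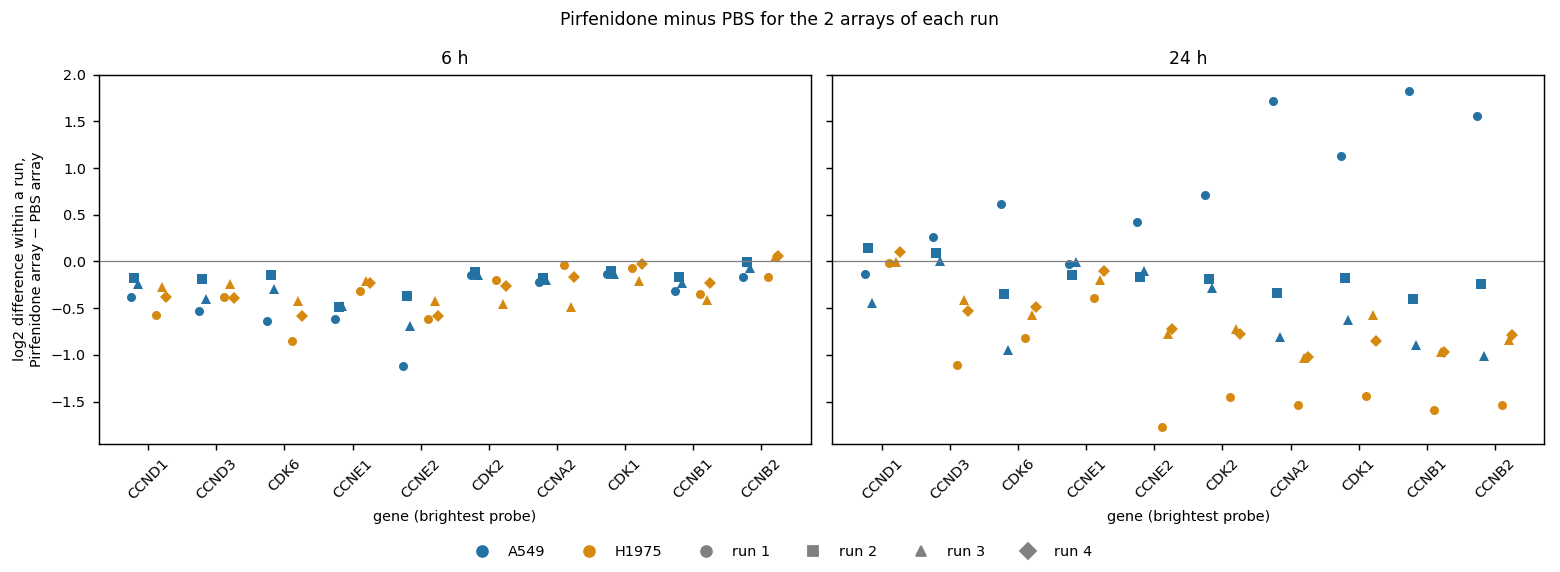
Log2 difference between the Pirfenidone array and the PBS array of the same run (vertical axis) for the 10 genes (horizontal axis) at 6 h and 24 h, with the line as colour and the run as marker. At 6 h nearly all points lie below 0, down to −1.12 for CCNE2 in A549. At 24 h the A549 pair of run 1 lies above 0 for CCNA2 (1.72), CCNB1 (1.82) and CCNB2 (1.56) while the H1975 points of these genes lie below it.

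The difference between the lines at 24 h was tested directly. The Pirfenidone change in H1975 minus that in A549 was −1.39 (SE 0.44, adjusted p = 0.193) for CCNA2, −1.14 (SE 0.30, adjusted p = 0.123) for CCNE2 and −1.06 (SE 0.24, adjusted p = 0.0737) for CDK2. None of the 10 genes was called in limma, where 0.193% of probes were, and before adjustment 7 members had a p under 0.05, all with a negative difference, where 12.2% of all probes had such a p in either direction. Without the A549 PBS array of replicate 3 the difference was −0.88 for CCNA2 (adjusted p = 0.394), −1.09 for CCNE2 (adjusted p = 0.279) and −0.90 for CDK2 (adjusted p = 0.185). Without both replicate 3 arrays of A549 it was −0.63, −0.96 and −0.74 (adjusted p = 0.672, 0.507 and 0.35). With run as a block and all arrays in, CCNE2 and CDK2 passed both limits (adjusted p = 0.048 and 0.0339). With that block but without both replicate 3 arrays of A549, neither gene passed both limits. The change at 24 h minus that at 6 h in H1975 was −1.04 (SE 0.43, adjusted p = 0.756) for CCNB2 and −0.97 (SE 0.44, adjusted p = 0.834) for CCNA2, again with no member called, where 0.0042% of probes were. For CCND1 it was 0.43 (SE 0.20, adjusted p = 0.844). Before adjustment 5 members had a p under 0.05 in the contrast of times, where 5.86% of all probes did.

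Without drug the largest differences between the lines were in CCND3 and CDK6. With PBS at 6 h CCND3 was lower in H1975 (difference −1.98, 3.93-fold, adjusted p = 1.41e-06) and CDK6 was lower too (difference −1.59, 3.02-fold, adjusted p = 8.86e-05). These 2 of the 10 genes were called, where 32.4% of all probes were. At 24 h CCND3 (−1.86), CDK6 (−1.48) and CCNE1 (−1.08) were called lower, 3 of 10 beside 32.9% of all probes, so the share of members called did not exceed that background at either time. CCNE1 differed by −0.89 at 6 h (adjusted p = 4.23e-06), just under 2-fold.

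CCND3 in A549 with PBS read 3.12, 2.63 and 2.39 at 6 h, and H1975 read 0.90, 0.69 and 0.63. CDK6, the kinase it can pair with, read 2.48, 2.47 and 2.08 in A549 and 1.12, 0.39 and 0.74 in H1975. No H1975 array of either gene, treated or not, reached the lowest A549 array. CCND1 differed by −0.35 at 6 h (adjusted p = 0.045) and −0.54 at 24 h (adjusted p = 0.00334), both under 2-fold. The bright CCNE2 probe went the other way, with a difference of 0.59 (adjusted p = 0.0226) at 6 h and 0.59 (adjusted p = 0.0227) at 24 h. The dimmer CCNE2 probe differed by 0.28 (adjusted p = 0.435) and 0.15 (adjusted p = 0.691). It did not pass the test, and its arrays overlapped at both times.

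The mitotic genes gave no single answer between the lines. The bright CCNB1 probe was higher in H1975 by 0.22 (adjusted p = 0.576) at 6 h and 0.88 (adjusted p = 0.0259) at 24 h. The dimmer CCNB1 probe differed by −1.04 (adjusted p = 0.00179) and −0.51 (adjusted p = 0.0945), so the probes of this gene differ in sign. Under PBS CCNB2 differed by −0.73 (adjusted p = 0.0474) at 6 h and −0.038 at 24 h, and CCNA2 by 0.38 and 0.80 (adjusted p = 0.0342 at 24 h). At 24 h these values include the low A549 PBS array of run 1. Without that array CCNA2 differed by 0.29 and CCNB1 by 0.32, and neither passed the test (adjusted p = 0.305 and 0.232), while CCNB2 differed by −0.57 and passed the adjusted p alone (adjusted p = 0.0243).

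**Figure D4:**
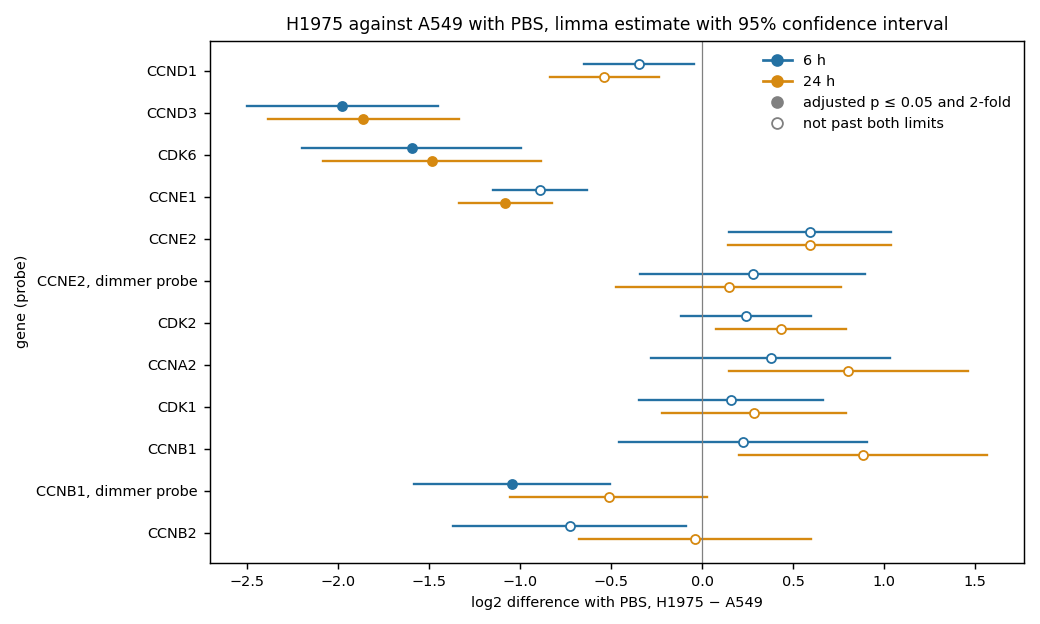
Log2 difference of H1975 minus A549 with PBS (horizontal axis) for all 12 probes (vertical axis) at 6 h and 24 h, as the limma estimate (point, filled where it was called) with its 95% confidence interval. CCND3 and CDK6 lie furthest left at both times, and the bright and the dimmer CCNB1 probe lie on opposite sides of 0.

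Between 6 h and 24 h with PBS, none of the 10 genes was called in limma in either line, where 0.109% of probes in A549 and 0.315% in H1975 were. Before adjustment 3 members in A549 and 0 in H1975 had a p under 0.05, where 8.49% and 10.6% of all probes did. In A549 these were CCNA2 (−0.71), CCNB1 (−0.76) and CDK1 (−0.53), and without the low PBS array of run 1 at 24 h their differences were −0.20, −0.20 and −0.27. Ordered by mean over the 8 groups, CCNA2, CCNB1 and CDK1 were highest in H1975 with PBS for 6 h (0.82 ± 0.10, 4.19 ± 0.22 and 3.08 ± 0.11) and lowest in H1975 with Pirfenidone for 24 h (−0.66 ± 0.44, 2.91 ± 0.32 and 1.72 ± 0.34). That rank of CCNB1 is of its brighter probe. The dimmer one was highest in A549 with PBS for 6 h (1.70 ± 0.12), placed H1975 with PBS for 6 h 6th (0.66 ± 0.23) and had the same lowest group. For CCNB2 and CDK2 the lowest group was also that one (2.37 ± 0.37 and −3.00 ± 0.30). It was lowest for CCND3, CCNE1 and CDK6 too (−0.072 ± 0.27, 1.78 ± 0.11 and −0.080 ± 0.16). For CCNB1 and CDK1 each neighbour in that order overlapped with the next. For CCNB2, CDK2 and CCND3 the last step, down to H1975 with Pirfenidone for 24 h, was a gap. For the bright CCNE2 probe the 2 lowest groups, H1975 with Pirfenidone for 24 h (−2.20 ± 0.40) and A549 with Pirfenidone for 6 h (−2.28 ± 0.14), overlapped and lay below all others. On the dimmer CCNE2 probe H1975 with Pirfenidone for 24 h was lowest (−5.61 ± 0.26). There A549 with Pirfenidone for 6 h (−4.90 ± 0.16) overlapped groups above it. For CCND3, CDK6, CCND1 and CCNE1 all 4 A549 groups ranked above all 4 H1975 groups, with a gap between the lines for all of these but CCND1.

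Other genes of the pathway were read from 4 lists. Among 17 other cyclins, of which CCND2 was not well above background on any array and 16 were tested, 1 was called in each of 3 of the 4 Pirfenidone comparisons. CCNG2, a cyclin tied to cell cycle exit, rose in both lines at 6 h, by 1.48 (SE 0.30, adjusted p = 0.0385) in A549 and 1.62 (SE 0.30, adjusted p = 0.00853) in H1975. It read −5.50, −5.96 and −6.33 in A549 with PBS and −4.56, −4.70 and −4.10 with Pirfenidone. In H1975 it read −4.97, −4.27 and −4.22 against −3.00, −3.07 and −2.54, so the treated arrays were higher without overlap in both lines. CCNF, the cyclin that serves an SCF ubiquitin ligase in G2, fell in H1975 at 24 h by 1.23 on the log2 scale (SE 0.30, adjusted p = 0.0213).

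Of 20 regulators of CDKs, 4 were called lower and none higher in H1975 at 24 h, and none in the other 3 Pirfenidone comparisons. PKMYT1, a kinase that holds CDK1 inactive, differed by −1.33 (adjusted p = 0.00444). CDC20, the activator of the anaphase-promoting complex, differed by −1.24 (adjusted p = 0.0452). The phosphatases CDC25C and CDC25A, which activate CDKs, differed by −1.08 (adjusted p = 0.0269) and −1.04 (adjusted p = 0.0078). The called genes thus act on CDK1 in both directions, and the median difference of the list was −0.41 beside 0.023 for all probes. CDKN1A passed the adjusted p alone with 0.95 (SE 0.25, adjusted p = 0.0327). CDKN1A, and CDC25A as the fourth called gene of the list, were chosen for naming after their values were seen. CDC25A was already lower in H1975 at 6 h by adjusted p alone, at −0.96 (SE 0.20, adjusted p = 0.0218).

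Of 18 RB, E2F and mitotic gene regulators, 3 were called in the 4 Pirfenidone comparisons, all lower in H1975 at 24 h. These were E2F8 (−1.45, adjusted p = 0.0141) and E2F2 (−1.38, adjusted p = 0.00588), members of the E2F family, and MYBL2 (−1.08, adjusted p = 0.0135), which works with the complex that switches on mitotic genes. The run 1 Pirfenidone array was the lowest treated array for all 3 genes, and for the called CDK regulators. E2F2 read −0.21, −0.13 and −1.62 (run 1) with Pirfenidone, against 0.80, 0.79 and 0.57 with PBS. Calls of list genes were not rerun without the run 1 array. The median of the list was −0.36. Of 15 other CDKs none was called in any of the 4 Pirfenidone comparisons, and the median in H1975 at 24 h was 0.092. Among the proliferation markers, MKI67 (−1.36, adjusted p = 0.039) and TOP2A (−1.09, adjusted p = 0.0424) were called lower in H1975 at 24 h and PCNA (−0.81, adjusted p = 0.0135) passed the adjusted p alone, and none was called in the other 3 Pirfenidone comparisons.

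Across the 24 arrays, with the mean of each line removed, the mitotic members ran together. Pearson's r was 0.97 for CCNA2 with CCNB1, 0.97 for CCNB1 with CCNB2 and 0.94 for CCNA2 with CDK1. These arrays share runs, slides and the treatment itself, so r is a description only. For CCND1 r lay between 0.053 and 0.35 with the other 9 genes. Over the 12 H1975 arrays alone its r lay between 0.020 and 0.25. Over the 10 A549 arrays without the replicate 3 pair at 24 h it lay between 0.34 (CCND3) and 0.72 (CCNE2). In A549 r was 0.12 for CCNA2 with CCNE2 over 12 arrays and 0.14 over 10 arrays without the replicate 3 pair at 24 h. Over the 12 H1975 arrays the same r was 0.88 and that of CCND3 with CCNE2 was 0.99.

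Of 18196 other genes compared, the 3 most like CCNB1 were DLGAP5 (r = 0.98), PTTG1 (r = 0.98) and CDCA3 (r = 0.98). The 3 most like CCNE2 were RIBC2 (r = 0.94), DTL (r = 0.94) and UNG (r = 0.92). The 3 most like CCND1 were PTGER4 (r = 0.85), AMD1 (r = 0.82) and PNN (r = 0.80). The probes of 1 gene gave r = 0.91 for CCNB1 and 0.88 for CCNE2 on the same scale.

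**Figure D5:**
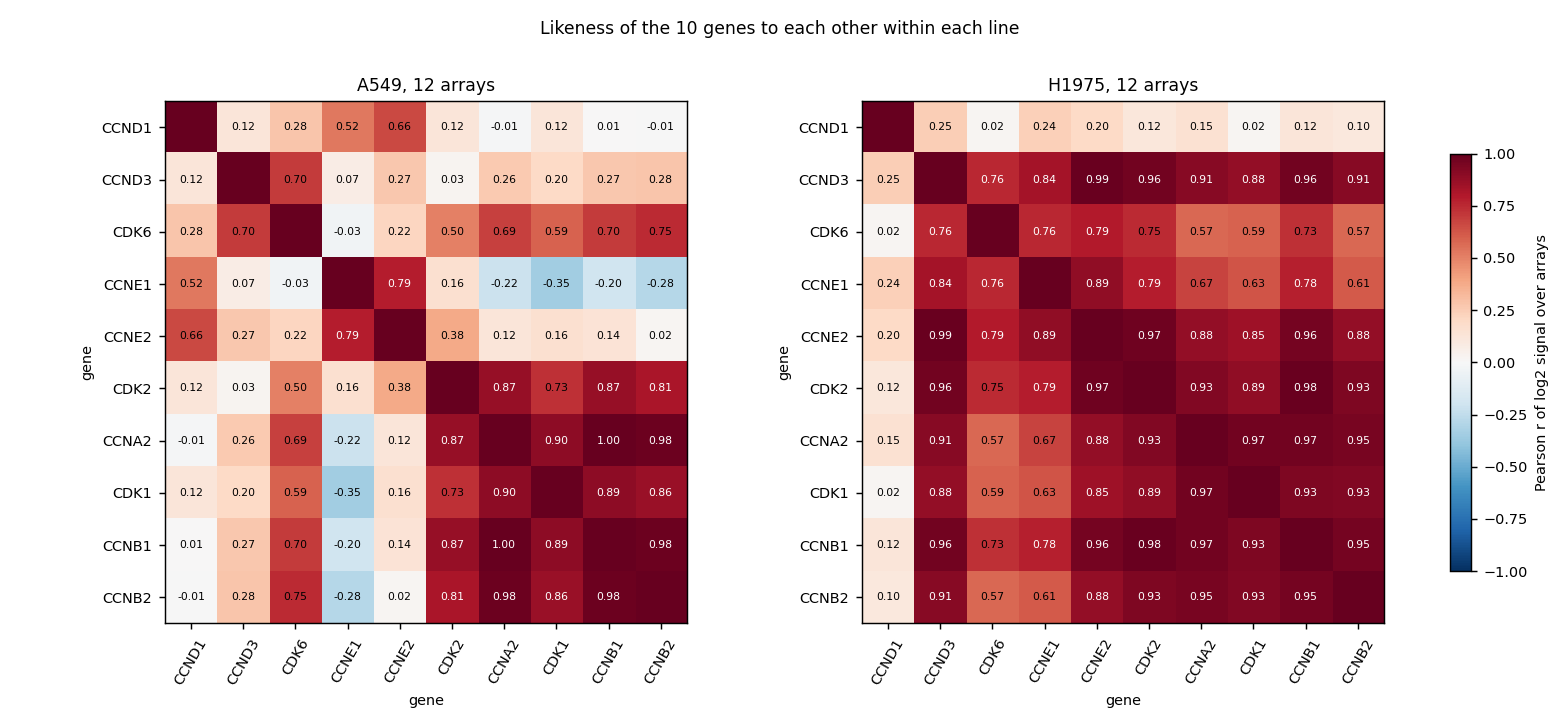
Pearson's r of the log2 signal between each pair of the 10 genes (both axes) over the 12 arrays of A549 and the 12 arrays of H1975. In H1975 the r values among the genes other than CCND1 are all positive (0.99 for CCND3 with CCNE2), and in A549 the mitotic genes and CDK2 form a dark block from which CCNE2 stands apart (0.12 with CCNA2).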

How the data were processed

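Total RNA was labelled in one colour and hybridised to Agilent arrays, and the authors deposited each array's scanner output (Agilent Feature Extraction 11.5.1.1). The deposited intensity values are background-subtracted processed signals per spot on a linear scale. The authors also deposited a table of log2 values centred per probe, which served as an alternative. Its scale and centring were found by setting it against the scanner values (r = 0.9995 for differences between arrays), and its column medians run from −0.163 to 0.156. Probe positions are those of the deposited file headers (hg19).

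From the intensity values the log2 signal was taken and the 75th percentile of the 43118 non-control spots of each array was subtracted. Spots marked as outliers were dropped before the spots of each probe were averaged. An array counted for a probe when at least 0.5 of its spots stood well above background, and a probe was tested when some group had all 3 arrays counted (23827 of 34127 probes). All 24 arrays entered 1 limma 3.58.1 fit (R 4.3.3) of 8 groups with 16 residual degrees of freedom, which was tested on simulated data. A call needed a Benjamini-Hochberg adjusted p of at most 0.05 and a 2-fold difference. The number of arrays limits the precision. The family-wise permutation test named in the methods was omitted, since its smallest two-sided p for groups of 3 is 0.1.

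Named are the 10 genes with all probes, up to 3 called genes per direction from each pathway list, and the 3 genes most like CCNB1, CCNE2 and CCND1. The members and lists were chosen with earlier results of these data known. Alternatives covered background correction, normalization, the authors' values, filters, blocks, thresholds, the methods' t-test and each array left out.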

Additional observations from a re-analysis of the deposited data

How the results depend on the processing

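No member reversed a called direction under any alternative run. The count of 4 called members in H1975 at 24 h was 1 with normexp background correction, 2 with no filter on dim probes, 1 with only the arrays compared, 0 with Holm adjustment, 0 with the methods' t-test after Benjamini-Hochberg and 8 with run as a block and no fold limit. With each array left out it lay between 0 and 4. For H1975 against A549 with PBS the count of 2 at 6 h became 6 with no fold limit, 1 with Holm adjustment and 5 with run as a block and no fold limit, and lay between 2 and 3 with each array left out. The count of 3 at 24 h became 8 with no fold limit and 7 with run as a block and no fold limit, and lay between 3 and 5. The line difference at 24 h went from 0 to 2 with run as a block and 3 without a fold limit too, and lay between 0 and 1 with each array left out. No member was called in it with run as a block and without both A549 arrays of replicate 3 at 24 h. The time difference in H1975 went from 0 to 1 (CCNB2, adjusted p = 0.0355 in limma) with run as a block and without both A549 arrays of replicate 3 at 24 h. At 6 h the count went from 0 to 1 in A549 and from 0 to 1 in H1975 with run as a block and no fold limit. The cause was not tested, except that Holm adjustment is stricter and dropping the fold limit looser by construction. The 2 alternatives that join the run block with another choice were chosen after seeing the data. The replicate block left the count in H1975 at 24 h at 4 and changed none of the 120 gene results. Same-numbered arrays correlated over 0.1 in A549 at 6 h (0.70, 0.58 and 0.64) and H1975 at 24 h (0.46, 0.53 and 0.72), where a number is also a run. They did not all do so in A549 at 24 h (0.39, 0.082 and −0.10), where it is a run too, or in H1975 at 6 h (−0.48, 0.43 and −0.68), where it is not. With 3 arrays a group, differences under 2-fold in the dimmer probes are at the limit of these data. The alternatives were run for the 10 members, not for the genes of the pathway lists. Shares of all probes called under the alternatives are not given, so member counts under them cannot be set against a background.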
